A study of Mus musculus with 8 samples.

Results

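Interleukins are secreted proteins by which leukocytes and tissue cells signal to each other, and each acts through a receptor of 1 or more membrane chains. The genes described here were those whose array name is Il followed by a number, 74 of the 34821 gene names on the array. The pattern took 81 names, and Il1a, Il1b, Il1rn, Il1r1, Il1r2, Il18 and Il34 were left out. The 74 were 34 ligands, 37 receptor chains, 2 soluble binding proteins (Il18bp and Il22ra2) and 1 enzyme (Il4i1). They were measured by 96 probes, 19 genes had more than 1 probe, and the brightest probe stood for each gene.

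Gene expression had been measured on 8 one-colour arrays of cells sorted from the ischemic brains of 4 bone-marrow-chimeric C57BL/6 mice, animals A to D. All animals had 30 min of focal ischemia (MCAo, occlusion of the middle cerebral artery) followed by 7 days of reperfusion, with no further treatment. Each animal gave 1 sample of GFP-positive cells, labelled resident microglia, and 1 sample of RFP-positive cells, labelled invading macrophages. Neither the promoters that drive GFP and RFP nor the animals' age and sex are given in the labels used, and no sham or healthy brain was compared. Replicates 1 to 4 of both groups are animals A to D. RNA was amplified by a global PCR before labelling. Levels are log2 signals with the array's 75th percentile subtracted, which is 0 on this scale, and differences are macrophages minus microglia.

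Most receptors of this family have a chain that binds 1 ligand and a second chain shared with other receptors, such as Il2rg for the IL-2, IL-4, IL-7, IL-15 and IL-21 receptors, Il6st (gp130) for the IL-6 group, and Il1rap for the IL-1, IL-33 and IL-36 receptors. The first 2 groups signal through JAK kinases and STAT factors, and the IL-1 receptor group through MyD88 and IRAK kinases. In the injured brain microglia and infiltrating myeloid cells are known both as sources and as targets of these proteins.

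Markers of the sorted cells were checked first. The summed level of 8 microglia markers, in multiples of the array's 75th percentile, was 736 to 938 on the microglia arrays and 147 to 402 on the macrophage arrays, and 6 of the 8 were lower in macrophages. That of 8 monocyte markers was 8.89 to 39.6 and 56.8 to 283, and 6 of the 8 were higher. Ly6c1 and Plac8 were not, and Ly6c1 was the brightest of the 8 on macrophage replicate 2 (7.84), where the sum was 283. Macrophage replicate 2 stood apart: the sum of 8 endothelial markers was 517 there, 11.5 to 46.4 on the other macrophage arrays and 3.99 to 5.40 in microglia, and the sum of 8 natural killer (NK) cell markers was 22.4, 1.85 to 4.25 and 1.05 to 1.44. Each result below is therefore also given without that array where its call changes. Sums of 10 T cell markers overlapped (8.15 to 11.2 and 7.88 to 10.9), and sums of 7 mast cell or basophil markers were 0.993 to 1.68 in microglia and 0.684 to 1.25 in macrophages. Of these 7, Tpsb2 was well above background on all 8 arrays, Kit and Fcer1a on 1 macrophage array each, and Cpa3, Mcpt4, Mcpt8 and Ms4a2 on no array. Other sums were higher on every macrophage array. They were 23.2 to 44.6 in microglia and 82.0 to 138 in macrophages for 8 neutrophil markers. For 7 dendritic cell markers they were 1.96 to 3.29 and 3.37 to 9.62, and for 5 astrocyte markers 0.363 to 1.02 and 1.76 to 5.55. Of those tested, 0 of 6 neutrophil, 0 of 5 dendritic cell and 1 of 4 astrocyte markers (Gfap) passed the adjusted threshold used below. Mmp8 led the neutrophil sums on macrophage replicates 1, 3 and 4, at 6.69, 5.79 and 5.53. Every neutrophil marker taken alone overlapped between the groups. Sums of B cell, border macrophage, oligodendrocyte and neuron markers overlapped. The part of such cells in the members' values was not tested. In sorted bulk samples, fewer cells of a type and less RNA per cell cannot be told apart.

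Receptor chains were measured well above background more often than ligands. Of 34 ligands, Il15, Il16, Il17d, Il25 and Il27 passed this threshold of the scanner software on all 8 arrays, 19 passed on none and 10 on some. Of 37 receptor chains, 19 passed on all 8 arrays, 5 on none (Il1rapl2, Il20ra, Il23r, Il2ra and Il9r) and 13 on some. In either group the ligands on no array included Il2, Il4, Il5, Il21, Il22, Il17a and Il17f, which are known as T helper cell products, as well as Il6, Il7, Il11, Il12a and Il33. A probe not well above background sets only an upper limit on its transcript. The 74 members together were on all 8 arrays in 35.1% of cases and on none in 33.8%, against 43.0% and 26.8% of all 34821 gene names.

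**Figure D1:**
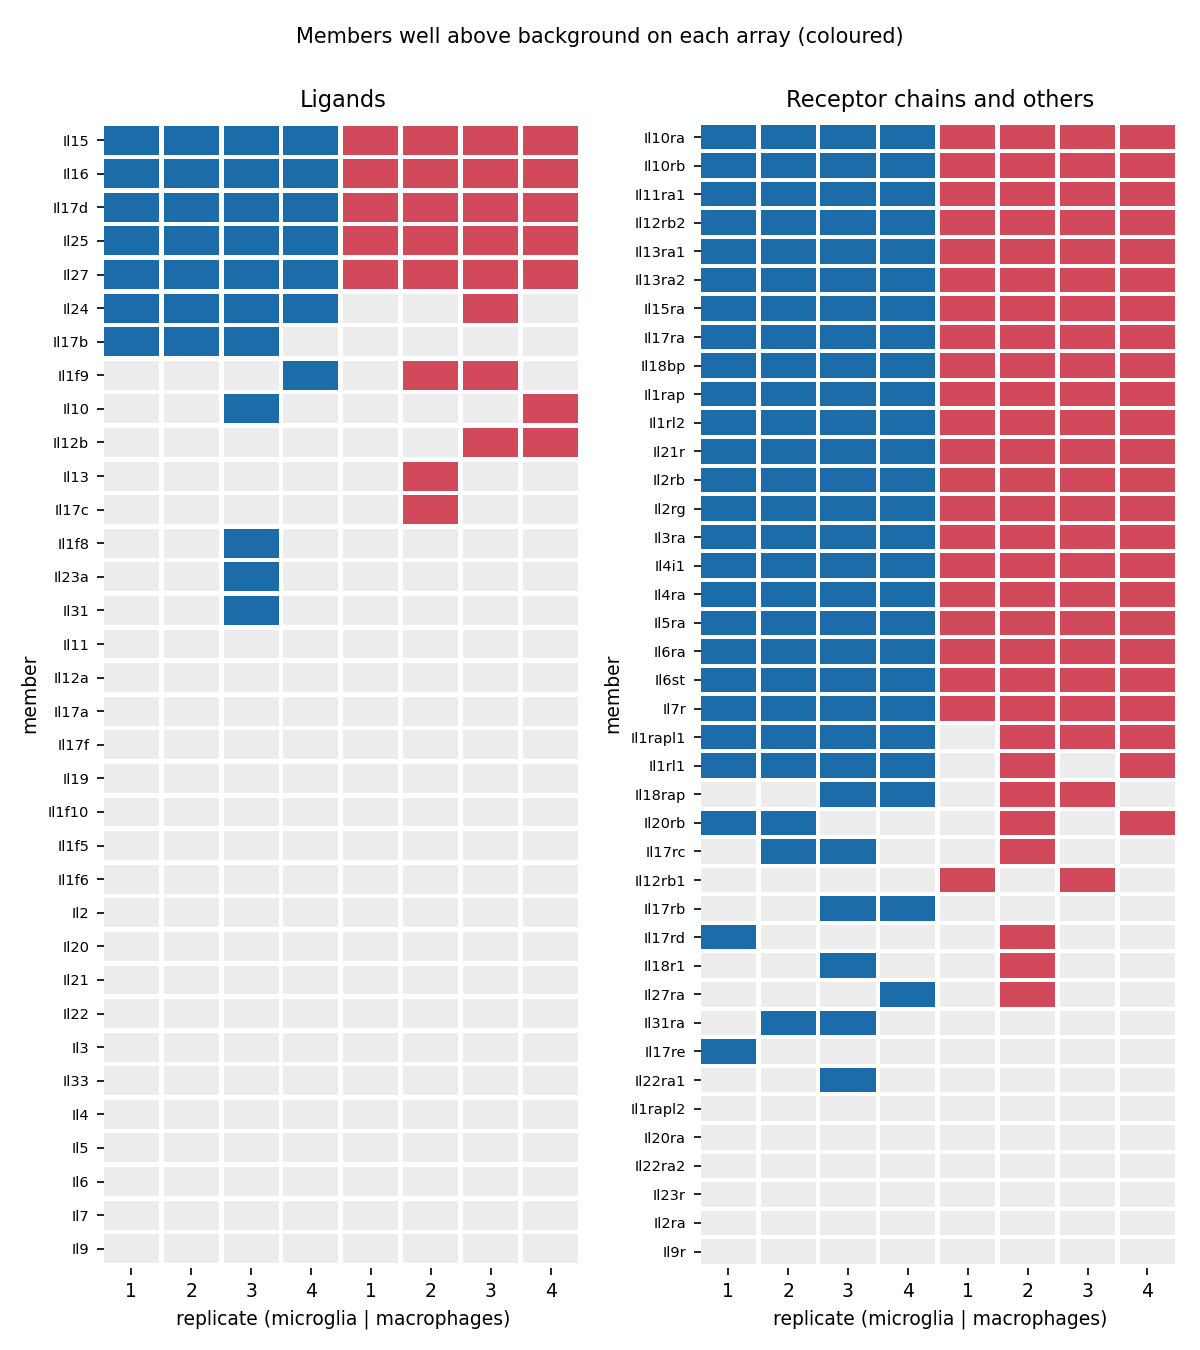
Detection of each of the 74 members, ligands at left and receptor chains, binding proteins and Il4i1 at right, on the 4 microglia (blue) and 4 macrophage (red) arrays; a grey cell is not well above background. Among ligands 5 rows are full and 19 are empty, while among the 37 receptor chains 19 rows are full and 5 are empty.

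The number of members well above background was 33, 33, 40 and 33 on microglia replicates 1 to 4 and 27, 37, 32 and 31 on macrophage replicates 1 to 4. The share of all gene names above background moved with it, from 54.7% to 60.6% in microglia and up to 60.6% on macrophage replicate 2, where it was highest in that group. In microglia 29 members were above background on all 4 arrays and in macrophages 26. No member was on all arrays of one group and on none of the other. Il24 came nearest, on 4 of 4 microglia arrays and 1 of 4 macrophage arrays, followed by Il17b, an IL-17 family ligand, on 3 and 0.

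Complete sets of receptor chains were measured for part of the ligands. Each chain was taken by its brightest probe, so other transcripts of the same gene may be dimmer. Of 23 receptor complexes, 11 had every chain well above background on all 8 arrays: those for IL-3, IL-5, IL-6, IL-7, IL-10, IL-11, IL-15, IL-21 and IL-36, and both IL-4 receptors (Il4ra with Il2rg, and Il4ra with Il13ra1). The complexes for IL-2, IL-9, IL-20, IL-23 and IL-31 were complete on no array, the IL-2 receptor for lack of Il2ra, its high-affinity chain. The IL-33 receptor, Il1rl1 with Il1rap, was complete on 4 microglia arrays and 2 macrophage arrays. In the IL-33 and IL-36 receptors Il1rap was counted by its variant 2 probe alone. Its variant 1 probe was well above background on 0 microglia arrays and 1 macrophage array, and its remaining probe on 0 arrays. A complete membrane receptor is therefore not shown for IL-33 or IL-36. The IL-12 receptor was complete on 0 microglia and 2 macrophage arrays, the IL-17A receptor on 2 and 1, the IL-25 receptor on 2 and 0, the IL-22 receptor on 1 and 0, and the IL-18 and IL-27 receptors on 1 and 1 each. The IL-17A count rests on the brightest Il17rc probe. The other Il17rc probe, on the same transcript, leaned the other way and was well above background on 0 microglia and 2 macrophage arrays. The macrophage arrays with a complete IL-12 receptor were replicates 1 and 3, where Il12rb1 measured -2.57 and -2.98, against -6.39 and -5.88 on replicates 2 and 4 and -6.25 to -5.55 in microglia. For IL-27 the ligand subunit Il27 was on all 8 arrays, while the receptor chain Il27ra was on 1 microglia and 1 macrophage array.

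The comparison between the groups asked how invading macrophages differ from the microglia of the same brains. It could be made for 31 members whose probe passed the background threshold on 4 or more of the 8 arrays, and the other 43 were not tested. In macrophages 5 of the 31 were lower (Il24, Il1rl2, Il1rl1, Il6ra and Il10ra) and 1 was higher (Il1rap), at a Benjamini-Hochberg adjusted p under 0.05 over all 19718 gene names tested (limma). Of all gene names tested, 4.13% were lower and 2.53% were higher, so the single higher member of 31 lies near the background share. Il24 and Il1rl1 passed the filter mainly through the microglia arrays. At an unadjusted p under 0.05, 9 members were lower, against 12.5% of all gene names, and 3 higher, against 11.5%. The median difference was -0.28 over the 31 members, with 21 below 0 (67.7%), and 0.02 over all gene names tested, with 48.8% below 0.

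Ranges that did not overlap between the groups were found for 8 members that were lower in macrophages (Il24, Il1rl2, Il6ra, Il10ra, Il16, Il17ra, Il21r and Il4i1), where 9.46% of all gene names did the same, and for 2 that were higher (Il1rap and Il2rb), where 7.49% did. With the animal as a block, 2 members were lower (Il24 and Il1rl2), against 2.44% of all gene names, and 0 were higher, against 1.29% (limma). In that fit 3 members were higher and 10 lower at an unadjusted p under 0.05, against 11.7% and 12.2% of all gene names. With animal and slide both as blocks only Il24 was called. Without macrophage replicate 2, 8 members were lower, Il16, Il4i1 and Il6st in addition, against 6.86% of all gene names, and 3 were higher, Il1rap with Il2rg and Il7r, against 8.27%. The higher counts in all these readings lie near or below their background shares. The scaling of the arrays moved the balance: over all gene names 498 were higher and 815 lower, but 804 and 633 when arrays were centred on their medians, and 452 and 1268 when the percentile was taken over probes detected on all arrays. These scalings put the median difference of all gene names at 0.23 and -0.14, and gave 1 higher with 2 lower members and 1 higher with 7 lower members.

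**Figure D2:**
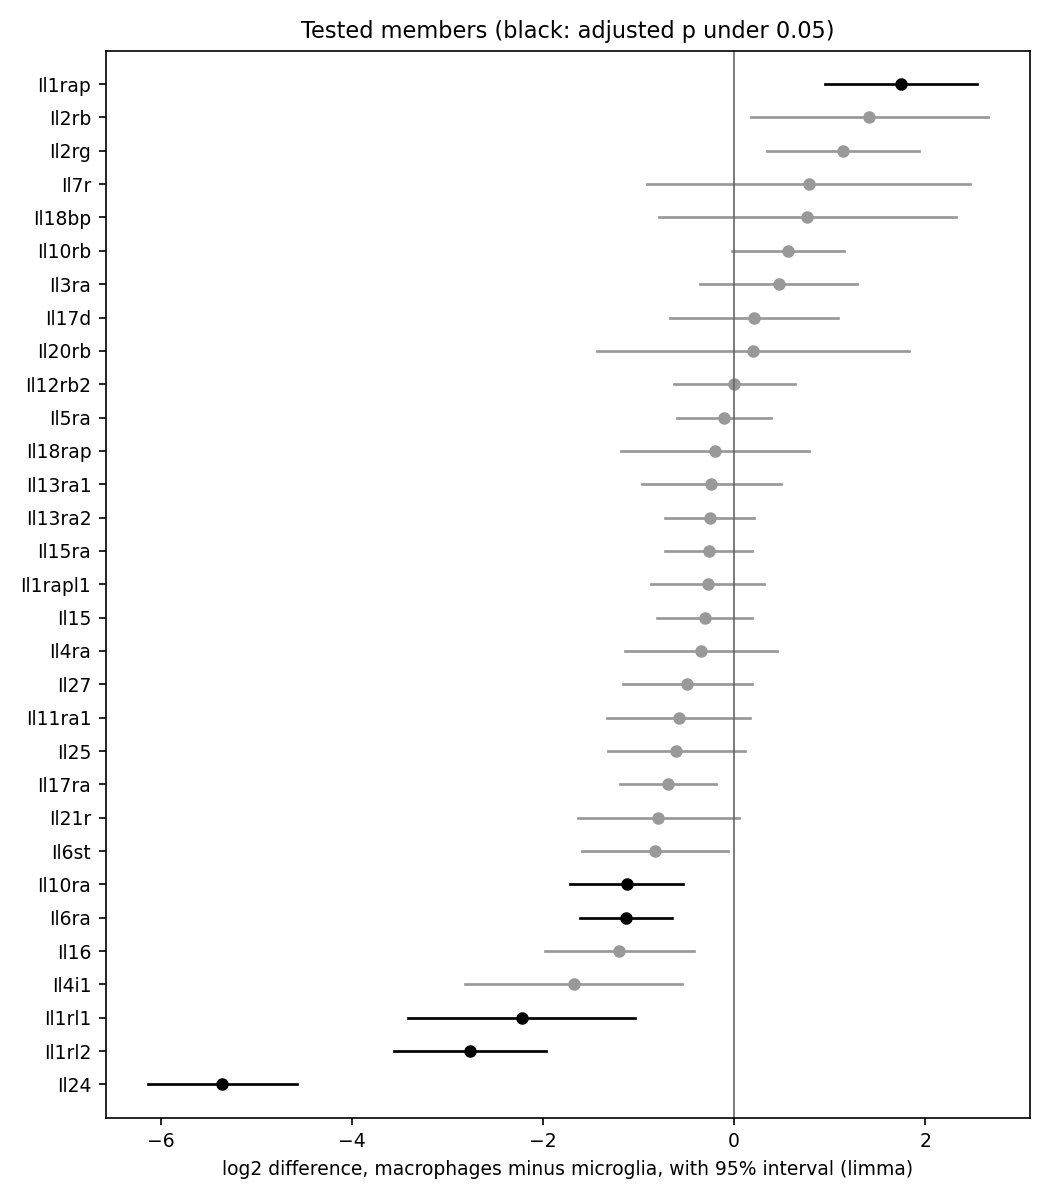
Differences in log2 signal, macrophages minus microglia, of the 31 tested members (points) with 95% intervals from limma (lines); black marks an adjusted p under 0.05. Il24 lies apart at -5.36, followed by Il1rl2 at -2.77 and Il1rl1 at -2.22, and Il1rap is the called member above 0, at 1.75.

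The ligand with the largest difference was Il24, a cytokine of the IL-10 family that is known to act through receptors built on Il20rb. Its probe, which the files place in mouse build mm9 at chr1:132783875-132783934 on the minus strand, starts at base 54 of its transcript, while a probe on another Il24 transcript starts at base 176. The first 30 bases of both are shown because only the first gave signal. The part of the transcript (coding or UTR) was not looked up for any probe.
Il24, called probe: aagatcctctaccaatgaatgctgactgag
Il24, other probe: taagttccgagtcagaatttgacttcaggg
The called probe measured 1.92, 0.62, 1.75 and 1.26 on microglia replicates 1 to 4 and -4.05, -4.19, -3.40 and -4.24 on macrophage replicates 1 to 4. All microglia values lay above all macrophage values, and among macrophages only replicate 3 was well above background. Il24 was at least 31.6-fold lower in macrophages, with a fitted difference of -5.36 (95% interval -6.14 to -4.58, adjusted p = 7.03e-05, limma), and it was lower in 4 of 4 animals. The other probe was well above background on 0 arrays and had means of -5.90 and -5.92, so the difference rests on 1 of 2 probes.

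The Il24 call held in every setting tried, with the animal as a block included (adjusted p = 0.0028, limma). The difference was -5.45 among the 5 arrays of one slide and -5.32 among the 3 of the other, and -3.06 with another background correction (normexp), which raises dim signals. The chains that bind IL-24 were themselves dim: Il20rb was well above background on 2 microglia and 2 macrophage arrays by its main probe and on 3 and 1 by the other, Il22ra1 on 1 microglia array, and Il20ra on none. In the mouse genome Il24 stands in a row with Il20, Il19 and Il10. Il20 and Il19 were well above background on no array. Il10, the anti-inflammatory cytokine that names the family, measured -4.83, -5.74, -3.73 and -5.76 in microglia and -3.02, -6.32, -5.37 and -2.74 in macrophages, and only microglia replicate 3 and macrophage replicate 4 were well above background.

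The other ligands measured on all arrays differed less. Il16, the chemoattractant of CD4-bearing cells, measured 3.85, 3.58, 3.30 and 3.24 in microglia and 2.24, 1.40, 2.72 and 2.81 in macrophages. The groups did not overlap, and macrophage replicate 2 was lowest. The difference of -1.20 (95% interval -1.98 to -0.42) missed the threshold (adjusted p = 0.0778, limma), and without macrophage replicate 2 it was -0.90 and passed (adjusted p = 0.0484). It also passed with normexp, with the percentile of detected probes, with quantile normalization and in the authors' deposited table of log2 values, at adjusted p = 0.0346, 0.0244, 0.0306 and 0.0306 (limma).

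Il15, a growth factor of NK cells and memory T cells, measured -0.14 to 0.54 in microglia and -0.24 to 0.05 in macrophages, with a difference of -0.31 (adjusted p = 0.425, limma). Il27, whose product pairs with Ebi3 to form IL-27, had 0.28 to 0.83 and -0.65 to 0.60, a difference of -0.49 (adjusted p = 0.355). Il25, the IL-17 family ligand known from epithelial type 2 responses, had -1.80 to -1.29 and -2.83 to -1.44, a difference of -0.61 (adjusted p = 0.279). In all 3 the groups overlapped, and the 95% intervals were -0.80 to 0.19, -1.17 to 0.19 and -1.32 to 0.11.

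Among ligands too dim for the test, 3 had their few detections in macrophages only. Il12b, the p40 subunit of IL-12 and IL-23, measured -4.32, -6.07, -2.94 and -3.22 in macrophages, well above background on replicates 3 and 4, and -5.65 to -4.68 in microglia. Il13, a type 2 cytokine, was well above background on macrophage replicate 2 alone (-3.49), and so was Il17c (-3.18). Il1f9, which encodes IL-36 gamma, a ligand of the Il1rl2 receptor, was above background on 1 microglia array (replicate 4, -3.44) and on 2 macrophage arrays (replicates 2 and 3, -2.64 and -2.83). Il17b measured -2.89, -3.38, -3.85 and -5.62 in microglia, the first 3 above background, and -4.66 to -3.54 in macrophages, where none was. Il1f8, Il23a and Il31 were above background on microglia replicate 3 alone. Il5, the growth factor of eosinophils, was on no array. With 0 to 3 detections of 4, none of these differences was tested.

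Among receptors, both members of the IL-1 receptor group that were called lower in macrophages are neighbours among the protein-coding genes of chromosome 1. Il1rl2 encodes the chain that binds the IL-36 cytokines. Its 60-base probe (mm9, chr1:40422123-40422182, plus strand) is printed whole as the sequence behind the larger of the 2 differences.
Il1rl2, probe: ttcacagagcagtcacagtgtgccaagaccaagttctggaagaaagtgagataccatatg
Il1rl2 measured 1.22, 1.75, 1.71 and 2.07 in microglia and -0.14, -1.48, -1.33 and -1.36 in macrophages. There was no overlap of groups, and macrophage replicate 1 was the highest of its group. Il1rl2 was 6.81-fold lower in macrophages (difference -2.77, 95% interval -3.56 to -1.97, adjusted p = 0.00282, limma), lower in 4 of 4 animals. It was called whichever array was left out (adjusted p = 0.00104 to 0.0140) and with the animal as a block (0.0327). It was not called with animal and slide both as blocks (adjusted p = 0.0712), and was -3.28 among the 5 arrays of one slide and -1.63 among the 3 of the other (adjusted p = 0.0219 and 0.295, limma).

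Il1rl1 encodes ST2, the receptor of IL-33, in a membrane-bound and a secreted form. Of its 3 probes, 2 lie on the transcript the array annotation gives for one form (variant 1) and 1 on the other (variant 2). Their first 30 bases are printed because the variants gave different results.
Il1rl1, variant 1, brightest probe: gccattgactccttgtgtgttttcttcatg
Il1rl1, variant 1, other probe: ccttacccaaattgccattacagtcgagca
Il1rl1, variant 2 probe: ctctgtaacaggatcttttgtctagatttc
The brightest probe (mm9, chr1:40522187-40522246, plus strand) measured -1.60, -0.85, -2.36 and -1.39 in microglia and -4.62, -4.18, -3.95 and -2.35 in macrophages. Macrophage replicate 4 lay just above microglia replicate 3, so the groups met, and macrophage replicates 1 and 3 were not well above background. Il1rl1 was at least 3.44-fold lower in macrophages (difference -2.22, 95% interval -3.41 to -1.04, adjusted p = 0.0406, limma). The other variant 1 probe was above background on 4 microglia arrays and on macrophage replicate 4, with a difference of -3.13 and at least 3.38-fold lower (adjusted p = 0.0534 with every probe as its own feature, limma). The variant 2 probe was above background on 0 arrays.

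The Il1rl1 call was lost without microglia replicate 1, 2, 3 or 4 (adjusted p = 0.0880, 0.116, 0.0545 and 0.104) and without macrophage replicate 1 or 3 (0.0983 and 0.0950, limma). It was also lost with the animal as a block (adjusted p = 0.0746), with the slide as a block (0.0780), with normexp (difference -0.83, 0.0661), with median centring (0.0646), with quantile normalization (0.0635), in the authors' deposited table of log2 values (0.0637) and with no filter on dim probes (0.0716). It was -1.61 and -3.39 within the slides of 5 and 3 arrays. Its ligand Il33 was well above background on no array.

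Il1rap encodes the accessory chain that Il1rl1 and Il1rl2 share with the IL-1 receptor, and it was the member called higher in macrophages. It has 3 probes on 3 transcripts, of which the brightest, on variant 2, was the one measured. The first 30 bases of each are given.
Il1rap, variant 2 probe: gatgttgtcaacgcctttgtttctaaatgt
Il1rap, variant 1 probe: catacatctttcagtagtcattggcaaaat
Il1rap, remaining probe: ccattttctttaaccagctcttccttgatc
The variant 2 probe (mm9, chr16:26701498-26701557, plus strand) measured -2.05, -3.23, -2.28 and -2.14 in microglia and -1.20, -0.89, -0.51 and -0.09 in macrophages. The groups did not overlap. The level was 3.36-fold higher in macrophages (difference 1.75, 95% interval 0.95 to 2.55, adjusted p = 0.0229, limma), higher in 4 of 4 animals. The variant 1 probe was above background on 0 microglia arrays and 1 macrophage array and the remaining probe on 0 arrays.

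The Il1rap call was lost without microglia replicate 2, 3 or 4 (adjusted p = 0.0522, 0.0599 and 0.0530) or macrophage replicate 3 or 4 (0.0629 and 0.0502), and with the animal as a block (0.0515, limma). Within the slides the difference was 1.71 among 5 arrays and 1.44 among 3 (adjusted p = 0.173 and 0.450). Of 22 alternatives, Il1rl2 kept its call under 20 and Il1rl1 under 6. In the main fit the ligand-binding chains for IL-33 and IL-36 were thus called lower in macrophages, each by its brightest probe. For the gene of the chain they share, the higher level rests on the variant 2 probe alone. The protein form that variant 2 encodes was not looked up, so a higher shared membrane chain is not shown. Both chains of the IL-36 receptor were nonetheless well above background on all 8 arrays by their brightest probes, which for Il1rap is the variant 2 probe alone.

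**Figure D3:**
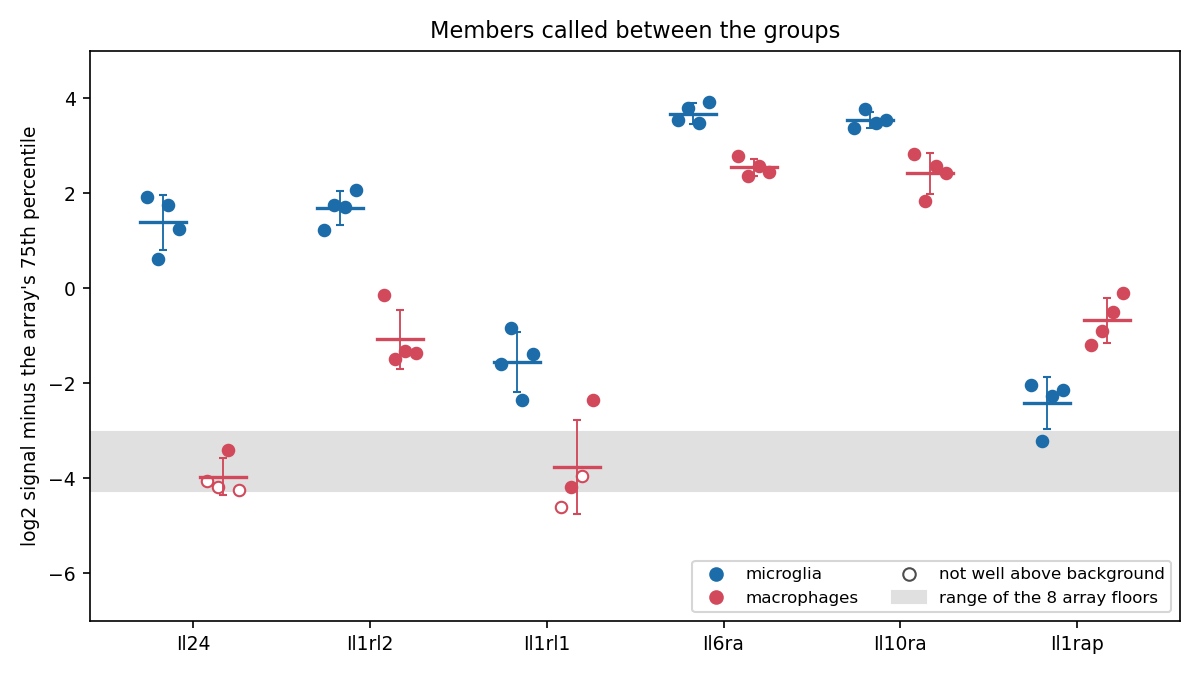
Log2 signal above the 75th percentile of each array for the 6 called members, with group means (bars) and SD (whiskers, n = 4); open points are not well above background and the grey band spans the 8 array floors. The groups are apart in all but Il1rl1, where macrophage replicate 4 (-2.35) meets microglia replicate 3 (-2.36).

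The row Il1r2, Il1r1, Il1rl2, Il1rl1, Il18r1 and Il18rap on chromosome 1 has no other protein-coding gene between its members in the RefSeq annotation. The neighbours on the other side of Il1rl1 were dim. Il18r1, the chain that binds IL-18, measured -5.31, -3.45, -2.93 and -4.23 in microglia and -4.76, -0.92, -5.77 and -5.07 in macrophages, well above background on microglia replicate 3 and macrophage replicate 2. Il18rap, its partner, measured -4.17 to -2.58 and -4.14 to -2.90, with a difference of -0.20 (adjusted p = 0.812, limma). The difference was thus called at 2 adjoining genes and not at Il18rap, and Il18r1 was not tested.

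**Figure D4:**
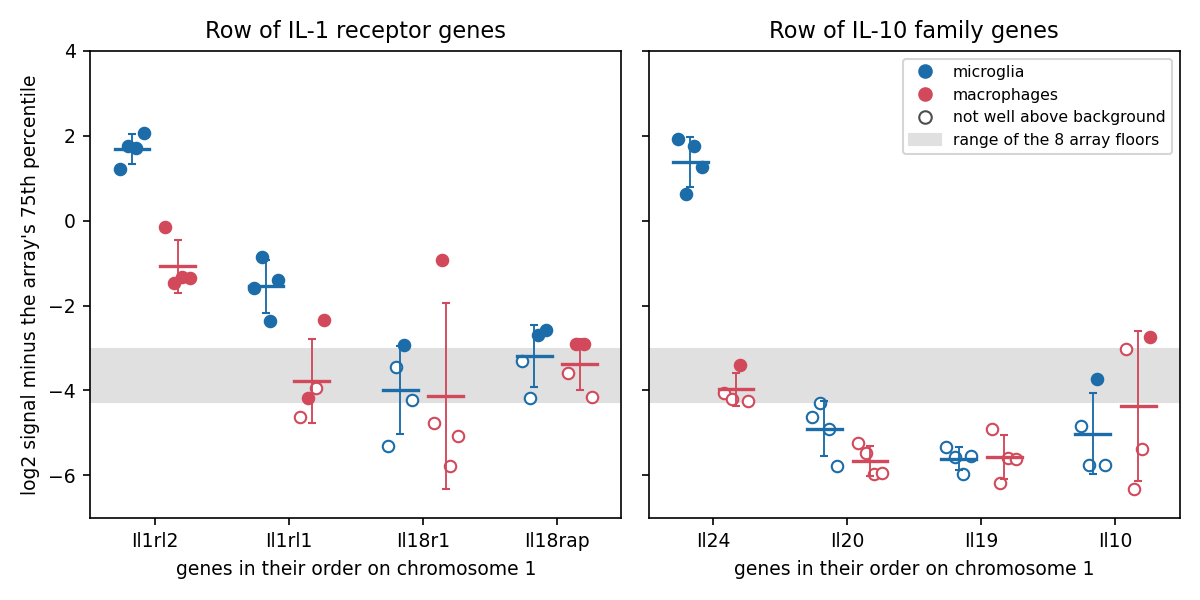
Log2 signal above the 75th percentile of each array for the members of the 2 gene rows on chromosome 1, in genomic order, with group means and SD (n = 4); open points are not well above background and the grey band spans the 8 array floors. Il1rl2, Il1rl1 and Il24 are lower in macrophages, while Il20 and Il19 stay at background in both groups.

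Promoter windows of Il1rl2 and Il1rl1, from 250 bases before to 50 after an annotated start (RefSeq, GRCm38.p6, plus strand), are printed because both genes were lower together. Capitals mark GGAATTTCC, a sequence of the NF-kB type (searched on both strands, as GGAATTTCC or its reverse complement GGAAATTCC).
Il1rl2, chr1:40324339-40324638: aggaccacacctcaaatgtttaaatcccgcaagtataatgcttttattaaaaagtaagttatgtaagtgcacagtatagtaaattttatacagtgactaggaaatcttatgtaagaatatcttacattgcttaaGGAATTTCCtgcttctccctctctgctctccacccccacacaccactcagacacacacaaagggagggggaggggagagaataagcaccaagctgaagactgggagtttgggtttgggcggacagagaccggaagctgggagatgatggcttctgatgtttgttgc
Il1rl1, chr1:40439379-40439678: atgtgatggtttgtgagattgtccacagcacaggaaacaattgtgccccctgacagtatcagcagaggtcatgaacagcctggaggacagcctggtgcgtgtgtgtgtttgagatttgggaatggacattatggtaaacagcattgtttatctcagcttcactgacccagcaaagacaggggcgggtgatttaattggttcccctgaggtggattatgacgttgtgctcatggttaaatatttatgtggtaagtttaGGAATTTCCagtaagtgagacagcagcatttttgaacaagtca
The match starts at position -116 from the start of Il1rl2 and at position 8 from this start of Il1rl1. The motif was chosen after these windows had been read, so its presence there is only a description. It occurs in 104 of 32851 promoter windows of the genome (0.317%) and in 4 of the 70 windows found for 58 members, the others being those of Il18rap and Il16. A match is not a binding site.

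In the IL-6 receptor group, the chain that binds IL-6 was lower in macrophages. Il6ra (mm9, chr3:89674054-89674113, minus strand) measured 3.53, 3.78, 3.47 and 3.93 in microglia and 2.78, 2.36, 2.58 and 2.45 in macrophages. The groups did not overlap, and the level was 2.20-fold lower (difference -1.13, 95% interval -1.62 to -0.65, adjusted p = 0.0170, limma), lower in 4 of 4 animals. The call was lost without microglia replicate 2 or 4 (adjusted p = 0.0603 and 0.0608), under the animal block (0.0743) and with median centring (0.0511), and within the slides the difference was -1.23 and -0.88 (adjusted p = 0.240 and 0.565, limma).
Il6ra, first 30 bases of its only probe: aggaccaagtgcagtaacggtagcccaaac

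Il6st, the shared gp130 chain, measured 3.89, 4.35, 4.02 and 4.48 in microglia and 3.17, 4.29, 2.94 and 3.02 in macrophages. Macrophage replicate 2 lay within the microglia range and the other 3 below it. The difference of -0.83 was not called (adjusted p = 0.179, limma), and without macrophage replicate 2 it was -1.14 and passed (adjusted p = 0.0153). Endothelial markers were highest on that array, and their part in its Il6st value was not tested. Il11ra1, which binds IL-11, differed by -0.58 (adjusted p = 0.322), and Il6 and Il11 themselves were on no array.

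In the IL-10 receptor group, the ligand-binding chain was called lower in macrophages and the shared chain was not called. Il10ra (mm9, chr9:45062237-45062296, minus strand), which binds IL-10, measured 3.37, 3.77, 3.47 and 3.54 in microglia and 2.83, 1.83, 2.57 and 2.43 in macrophages.
Il10ra, its only probe in full: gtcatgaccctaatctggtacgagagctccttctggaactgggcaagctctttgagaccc
No macrophage value reached the microglia range, and replicate 2 was lowest. Il10ra was 2.18-fold lower in macrophages (difference -1.12, 95% interval -1.72 to -0.53, adjusted p = 0.0388, limma), lower in 4 of 4 animals. The call was lost without microglia replicate 1, 2, 3 or 4 (adjusted p = 0.0692, 0.115, 0.0956 and 0.0992) or macrophage replicate 3 or 4 (0.0773 and 0.0786), and with the animal as a block (0.113), the slide as a block (0.0801), median centring (0.0954) or no filter on dim probes (0.0892, limma). Within the slides of 5 and 3 arrays it was -1.23 and -0.74 (adjusted p = 0.293 and 0.637).

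Il10rb, the chain that IL-10 and IL-22 receptors share, measured 4.81, 4.42, 4.20 and 4.74 in microglia and 5.47, 4.64, 5.11 and 5.19 in macrophages. The groups overlapped through macrophage replicate 2, and the difference of 0.56 (95% interval -0.02 to 1.15) did not pass (adjusted p = 0.224, limma).

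Of the 8 receptor chains of the gamma chain group, 6 were on all 8 arrays and none was called. Il2rg, the common gamma chain, measured 3.57, 2.71, 3.31 and 2.60 in microglia and 4.64, 3.39, 4.47 and 4.25 in macrophages. Only macrophage replicate 2 lay within the microglia range. The difference of 1.14 (95% interval 0.34 to 1.94) missed the threshold (adjusted p = 0.0933, limma), and was 1.40 without that array and passed (adjusted p = 0.0200), as it did with normexp (0.0451).

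Il2rb, the beta chain of the IL-2 and IL-15 receptors, measured -2.48, -2.58, -2.71 and -2.49 in microglia and -1.36, 0.62, -1.65 and -2.20 in macrophages. All macrophage values lay above all microglia values, with replicate 2 highest. The difference of 1.41 was not called (adjusted p = 0.159, limma), and was 0.83 without macrophage replicate 2. NK cells are known for this chain, and the summed level of NK markers was likewise highest on replicate 2. On macrophage replicates 1 to 4 the NK gene Gzmb measured 0.17, 2.60, 0.24 and -1.05, and it was well above background on no microglia array. Of the 4 NK markers tested, Gzmb and Ncr1 were called higher in macrophages. The NK markers Nkg7 and Prf1 were not called (adjusted p = 0.0862 and 0.569, limma) and were well above background on 4 of 4 arrays of each group. The part of such cells in the Il2rb values was not tested.

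Il7r, the IL-7 receptor chain, was not in the naming rule and was picked after its values were seen. It measured -1.10, -1.14, -1.13 and -1.36 in microglia and 0.55, -2.94, 0.77 and -0.0024 in macrophages. Macrophage replicate 2 lay below all microglia arrays and the other 3 above them. The difference was 0.78 over all arrays (adjusted p = 0.559) and 1.63 without replicate 2 (adjusted p = 0.0053, limma).

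Il21r, the IL-21 receptor chain, measured 5.60, 5.27, 5.45 and 5.46 in microglia and 5.15, 3.52, 4.83 and 5.11 in macrophages. Every macrophage value lay below the microglia, replicate 2 furthest, and the difference of -0.79 was not called (adjusted p = 0.235, limma) and was -0.42 without that array. Il15ra, which presents IL-15 to other cells, measured 7.60 to 7.98 and 7.33 to 7.68, with a difference of -0.27 (95% interval -0.73 to 0.19, adjusted p = 0.456, limma). Its dimmer probe, also well above background on all 8 arrays, had a difference of 0.42, higher in 4 of 4 animals, with overlapping groups (adjusted p = 0.536 with every probe as its own feature, limma). That probe lies on the same transcript but had means of -0.18 in microglia and 0.24 in macrophages, against 7.83 and 7.56 at the brightest. The level of Il15ra thus depends on the probe.

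Il4ra, the chain shared by both IL-4 receptors and the IL-13 receptor, gave different results at its 2 probes. The brightest measured 3.84, 4.13, 4.36 and 3.99 in microglia and 4.34, 2.82, 4.17 and 3.61 in macrophages, with overlapping groups and a difference of -0.34 (95% interval -1.14 to 0.45, adjusted p = 0.584, limma). The dimmer probe, further along the same transcript (base 5027 against base 466), measured -2.11, -2.80, -2.02 and -1.82 in microglia and -3.37, -6.38, -4.61 and -4.70 in macrophages, where it was well above background on 0 arrays. It passed the background threshold through the microglia arrays alone, so a difference was built into its selection. By that probe Il4ra was at least 2.88-fold lower in macrophages (adjusted p = 0.0344 with every probe as its own feature, limma). Il13ra1, its partner in the type II receptor, measured 1.90 to 3.28 and 2.29 to 2.81, with a difference of -0.24 (adjusted p = 0.689, limma).

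Receptor chains of the remaining families differed little or were dim. Il17ra, the chain common to IL-17 receptors, measured 3.82, 3.87, 4.09 and 4.37 in microglia and 3.51, 3.09, 3.34 and 3.44 in macrophages. The groups did not overlap, but the difference of -0.69 (95% interval -1.19 to -0.19) was not called (adjusted p = 0.101, limma). It passed with quantile normalization (-0.91, adjusted p = 0.0270), in the authors' deposited table of log2 values (0.0268) and with the percentile of detected probes (0.0318, limma). The other 4 IL-17 receptor chains were above background on 1 to 3 arrays. Il3ra, which binds IL-3, differed by 0.47 (adjusted p = 0.470), and Il12rb2, a chain of the IL-12 receptor, by 0.00 (95% interval -0.62 to 0.63, adjusted p = 0.995, limma).

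Of the soluble proteins, Il18bp, the inhibitor that binds IL-18, varied more within the groups than between them. It measured 3.62, 1.87, 3.22 and 2.60 in microglia and 4.95, 1.69, 3.74 and 4.01 in macrophages. Animal B was lowest in both groups. The difference of 0.77 had a 95% interval of -0.79 to 2.32 (adjusted p = 0.530, limma).

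Il4i1, an amino acid oxidase named for its induction by IL-4, measured -0.78, 0.01, -0.28 and -0.71 in microglia and -2.78, -1.34, -1.11 and -3.24 in macrophages. The groups did not overlap, and macrophage replicates 1 and 4 were lowest. The difference of -1.68 (95% interval -2.81 to -0.55) missed the threshold (adjusted p = 0.0846, limma). It was -1.94 without macrophage replicate 2, where it passed (adjusted p = 0.0405), and it passed with normexp at -0.94 (adjusted p = 0.0435).

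Genes that carry the signal inside the cell were taken from a list of 38 JAK, STAT, SOCS, IRAK and related genes, of which 34 were tested. In macrophages 3 were higher, Irak3 and Irak4 among them, and 0 lower, against 2.53% and 4.13% of all gene names tested. With the animal as a block 1 was higher and 0 lower, against 1.29% and 2.44%. The median difference of the 34 genes was 0.20, against 0.02 for all gene names. Irak4, the kinase that IL-1 family receptors engage through MyD88, was 2.03-fold higher (adjusted p = 0.0437, limma), and Irak3, an inhibitor of that step, 2.50-fold higher (adjusted p = 0.0494, limma). Both lost the call with the animal as a block (adjusted p = 0.0856 and 0.105, limma). Both also lost it with every probe as its own feature, and Irak4 with the mean over the passing probes of a gene. The list's calls moved with the setting: with the slide as a block 0 genes of the list were called, and leaving out 1 array gave 0 to 4 higher ones. Without microglia replicate 4 or macrophage replicate 1, 3 or 4 no gene of the list was called higher. Stat4, which IL-12 receptors use, differed by 3.25 without passing (adjusted p = 0.0590), and Socs3, an inhibitor of gp130 signalling, by -1.04 (adjusted p = 0.0746, limma).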

How the data were processed

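Per the labels' protocols, RNA was column-purified, and cDNA of bead-isolated mRNA was globally amplified by PCR (SuperAmp) and labelled with Cy3. Such amplification can change the proportions of transcripts. Per the file headers, the scans were processed in Agilent Feature Extraction 10.7.3.1, whose processed signal is a background-subtracted intensity that the authors deposited for each array. The log2 table that the authors deposited, whose normalization is not given in the sources used here, served as an alternative.

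Control spots and outlier spots were left out, spots of a probe were averaged, and log2 of the intensity minus the array's 75th percentile was taken. Groups were compared with limma 3.58.1 in R 4.3.3 (lmFit, eBayes, two-sided), without a block, over the 19718 gene names whose brightest probe passed the background threshold on 4 or more of 8 arrays, with Benjamini-Hochberg adjustment. Where arrays of the dimmer group were not well above background, "at least" folds set signals below the array floor (the lowest signal of a probe well above background) to that floor. Coordinates are mm9 from the files, and gene order and promoters are from RefSeq (GRCm38.p6, used for names and windows only). Python 3.11.15 served for tables (numpy 2.4.6, pandas 2.3.3), and the fit was checked on simulated data.

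The members, families, signalling genes and markers were chosen with earlier results of these data known. Named members were those called with or without the animal as a block, the 12 with the highest mean, those whose detections differed by 3 or 4 arrays, the 6 largest uncalled differences, and the brightest ligand and receptor of each family; other members are named from counts of 5 or fewer or were chosen after their values were seen. The values of 1 signalling gene are not reported here. Each sample's animal is in the labels, so samples are paired by design; deviations from group means correlated within animals A to D at 0.0618, 0.102, 0.0631 and -0.0127 across 19692 gene names. The number of arrays limits the precision. Alternatives were the animal and slide as blocks, fits within each slide, 4 other scalings or corrections, the authors' table, 2 filters on dim probes, the mean over probes, every probe as its own feature (added after seeing the data), and each array left out.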

Additional observations from a re-analysis of the deposited data

Results flagged for a closer look

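In 4 of 58 groups of 4 arrays, 1 array lay apart from the other 3 by Dixon's criterion, which chance alone meets in about 1 in 20 groups. Macrophage replicate 1 had the highest Il1rl2 of its group, at -0.14 against -1.48 to -1.33 on the other 3. Macrophage replicate 2 had 4.29 for Il6st against 2.94 to 3.17. Microglia replicate 4 had -1.36 for Il7r against -1.14 to -1.10, a gap that is small on the log2 scale. Microglia replicate 3 had -4.12 for Il13 against -5.88 to -5.69, with none of these 4 arrays well above background.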

How the results depend on the processing

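With the animal as a block (replicate block), 255 gene names were higher and 481 lower in macrophages, in place of 498 and 815, and 0 members were higher and 2 lower, in place of 1 and 5. The slide as a block gave 270 higher and 580 lower gene names and 1 higher and 3 lower members. Animal and slide together gave 257 and 471 gene names and 0 and 1 members. Within the slide of 5 arrays 8 and 114 gene names and 0 and 2 members were called, and within that of 3 arrays 55 and 195 gene names and 0 and 1 members. Median centring gave 804 and 633 gene names and 1 and 2 members. The percentile over detected probes gave 452 and 1268 gene names and 1 and 7 members, and normexp 732 and 928 gene names and 2 and 6 members. With no filter on dim probes, 277 and 619 of 34821 gene names and 1 and 3 of 74 members were called. Leaving out 1 array gave 198 to 1630 higher and 441 to 1353 lower gene names, and 0 to 3 higher and 2 to 8 lower members, the highest counts all without macrophage replicate 2. Of the 6 called members, Il24 kept its call under all 22 alternatives, Il1rl2 under 20, Il6ra under 15, Il1rap under 13, Il10ra under 9 and Il1rl1 under 6. Of the signalling genes, whose alternatives and those of the receptor complexes were added after the data were seen, 3 higher and 0 lower became 1 higher with the animal as a block, 0 with the slide as a block, 0 within either slide and 0 without the filter on dim probes. With normexp, the percentile over detected probes, quantile normalization and the authors' table, Socs3 was lower (1 gene), and without 1 array 0 to 4 were higher and 0 to 1 lower. The 11 receptor complexes found on all arrays were 11 in each of their alternatives. Passing the background threshold does not change with scaling or blocks, so this count does not test those. Among the 24 named members tested, the sign turned only for uncalled ones: Il12rb2 (-0.17 with animal and slide as blocks, -0.12 within 5 arrays, -0.15 with the percentile over detected probes, -0.11 with the mean over probes, -0.12 to 0.23 without 1 array), Il13ra1, Il15 and Il4ra (0.38, 0.041 and 0.36 within 3 arrays) and Il15ra (0.078 with the mean over probes). Of all 31 tested members, 10 were above 0 in the main fit, 12 with median centring and 14 within 3 arrays, so members not listed turned as well. The cause of these changes was not tested, beyond the smaller number of arrays in fits that leave some out. Signals near background limit Il24, Il1rl1 and the dim ligands to bounds.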

Other observations

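On macrophage replicate 2 the receptor chain Osmr, which oncostatin M and IL-31 receptors share, measured 1.98, against -3.53, -3.01 and -5.82 on macrophage replicates 1, 3 and 4 and -6.16 to -5.55 in microglia. It was well above background on 2 macrophage arrays and on no microglia array. Socs2, an inhibitor of STAT5 signalling, measured 2.03 on that array and -2.01, -1.05 and -1.33 on the other macrophage arrays. The chain Csf2rb, which IL-3 and IL-5 receptors share, was lower there, at 0.71 against 2.85 to 3.04 on the other macrophage arrays and 2.29 to 2.96 in microglia.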
